A study of Mus musculus with 12 samples.

Results

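Heat shock proteins are molecular chaperones that keep other proteins folded. In the cytosol, HSP70 machines work with J proteins, which bring them unfolded clients, and with exchange factors, which release those clients, and many clients pass on to HSP90. In mitochondria, the chaperonin of the Hspd1 (HSP60) and Hspe1 (HSP10) proteins folds imported proteins. Under protein-damaging stress, heat shock factor 1 binds repeated GAA units in the promoters of many of these genes and raises their transcription. The 10 genes described here are Hspa1a, Hspa1b, Hspa8, Hsp90aa1, Hsph1, Dnajb1, Hspb1, Hspd1, Hspe1 and Bag3. They were chosen by symbol, written in capitals in the deposited table (HSPA1A, HSPA1B, HSPA8, HSP90AA1, HSPH1, DNAJB1, HSPB1, HSPD1, HSPE1 and BAG3), and all 10 were found among its 24197 genes.

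Polyadenylated RNA was sequenced from cultured E0771 cells, a mouse mammary tumor line from the C57BL/6 strain, in 4 groups of 3 libraries. Untreated cells, labelled as collected at 72 h, were the control. All groups were the same line in the same culture medium, with no genetic change named in the labels. One group received 4HC (4-hydroperoxy-cyclophosphamide, a chemically activated form of the DNA-alkylating drug cyclophosphamide) at 4.2 µM for 4 h, and its RNA was isolated 72 h after the start of treatment. A further group received the same 4HC together with 10 µg/mL of an antibody that blocks IFNAR1, the receptor of type I interferon, and the antibody was kept in the fresh medium for the remaining 68 h. The last group received recombinant IFNβ, 27.8 U/mL, during 4 h. By the sample label, the study's description of these cells and the header of the table, these cells were collected 2 h after that exposure. The treatment protocol in the labels instead gives 68 h, and the collection time listed for these libraries is 72 h, as for control. The comparisons ask which RNA levels differ after the drug, and which of those differences are smaller when interferon signaling is blocked or appear with IFNβ alone. No group received the antibody without 4HC, or 4HC with a control antibody. Blocked signaling and other effects of the antibody therefore cannot be told apart.

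The deposited values were group means computed by the authors, in FPKM, which counts fragments per kilobase of a gene relative to the size of the library, so levels of different genes can be compared per length. Values per library were not analysed here. No SD, interval or test between groups can therefore be given, the depth of each library was not analysed here, and every difference below describes 4 group means. The control mean also enters all 3 comparisons with control, so these are not independent. The 5 interferon-stimulated genes used to check the labels (Isg15, Ifit1, Mx1, Oas2 and Irf7) were 23.0-fold to 64.3-fold higher with 4HC and 33.6-fold to 77.9-fold higher with IFNβ than in control. With the antibody, 0.0665% to 23.6% of their 4HC difference was left. Of 7 epithelial markers, only Krt8 (46.5 to 75.3 FPKM) and Erbb2 reached 0.5 FPKM, and Epcam, Krt18, Krt19, Krt7 and Cdh1 stayed below it in every group, and of 3 mesenchymal genes only Vim reached it (752.2 to 848.9 FPKM), with Cdh2 and Fn1 below it in every group. The 6 markers of leukocytes and endothelium found in the table summed to 0.685 to 0.757 FPKM in each group. Of these 6, only the endothelial marker Pecam1 reached 0.5 FPKM, and it made up most of each sum. It stood at 0.656 (control), 0.506 (4HC), 0.561 (4HC plus antibody) and 0.661 FPKM (IFNβ), while Cd3e was listed at 0 in all groups.

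The promoters of the HSP70 pair and of the chaperonin pair are shown first, because Hspa1b had the widest range over the groups and because Hspd1 and Hspe1 share 1 stretch of promoter. Hspa1b, encoding a stress-inducible cytosolic HSP70, lies on chromosome 17 at 35093373 to 35096183 in the mm9 build of the table. Its near-copy Hspa1a lies 10119 bases away at 35106303 to 35109101. Each has 1 exon in the GENCODE M21 annotation. Of the 100-base windows of the 2 transcripts, 47.1% of those of Hspa1a also occurred in Hspa1b and 49.9% of those of Hspa1b in Hspa1a, so reads can fit both genes. How the authors counted such reads is not given in the sources used here, so the level of each gene and the split between this pair are uncertain. RefSeq promoter sequences (GRCm38.p6, from 250 bases before to 50 after each transcription start) were found for 8 of the 10 genes, the others being Hspa8 and Hsp90aa1. The Hspa1a and Hspa1b windows differed at 4 of 300 positions and at 0 positions of the stretch printed here, which runs from 150 to 51 bases before the start at chr17:34959289-34959388 for Hspa1b and chr17:34972207-34972306 for Hspa1a, both read on the minus strand. Capitals mark a pair of heat shock units, GAANNTTC or TTCNNGAA on either strand, which here begins 104 bases before the start.
Hspa1b: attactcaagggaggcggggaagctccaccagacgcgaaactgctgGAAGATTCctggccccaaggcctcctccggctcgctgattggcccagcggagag
Hspa1a: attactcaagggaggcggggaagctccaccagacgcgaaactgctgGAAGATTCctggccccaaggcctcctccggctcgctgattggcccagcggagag

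Hspd1 (chromosome 1, 55134677 to 55144776 in mm9) and Hspe1 (55144991 to 55148161) stand head to head with 214 bases between them in the table's coordinates. The Hspe1 stretch below covers 110 to 11 bases before its start, at chr1:55088038-55088137 of GRCm38.p6 on the plus strand. Its capitals mark an unbroken run of 4 units that begins 89 bases before the Hspe1 start, and the same DNA read on the other strand begins 144 bases before 1 of the Hspd1 starts. Hspb1, encoding the small heat shock protein known in mouse as HSP25, is shown as a gene that carries pairs of units, 117 and 97 bases before its start, yet was hardly detected. Its stretch is chr5:135887769-135887868, plus strand.
Hspe1: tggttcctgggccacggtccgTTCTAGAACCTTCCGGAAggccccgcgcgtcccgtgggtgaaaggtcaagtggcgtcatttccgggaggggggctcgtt
Hspb1: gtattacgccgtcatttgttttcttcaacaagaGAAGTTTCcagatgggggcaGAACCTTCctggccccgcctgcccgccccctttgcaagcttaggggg

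A run of 3 units (GAANNTTCNNGAA or TTCNNGAANNTTC) occurred in the windows of 3 of these 8 genes, Hspd1, Hspe1 and Hsph1, where it lay after the start. A pair of units, which every such run also contains, occurred in 7 of 8, the exception being Dnajb1. Among 27025 genes with a window, 0.662% held a run of 3 units and 17.0% held a pair. Among 53 further chaperone genes with a window, 2 held the run of 3 units (Chordc1 and Dnajb6) and 16 a pair. These matches are letters in a fixed window, and the gene set is known for such elements.

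The 10 genes covered a very wide range of levels, and their order was nearly the same in every group. The highest was Hspa8, the constitutive cytosolic HSP70, with group means of 934.5 (control), 896.8 (4HC), 918.7 (4HC plus antibody) and 998.7 FPKM (IFNβ). In control it stood at the 99.97th percentile of all genes. Hsp90aa1, the stress-responsive HSP90 isoform, stood at 278.2, 309.8, 366.6 and 311.6 FPKM in the same order. Hspd1 stood at 246.5, 205.5, 212.5 and 260.4 FPKM and its partner Hspe1 at 124.9, 133.1, 176.2 and 143.0 FPKM. All 4 of these genes were in the top percent of control levels. Hsph1, an HSP110 protein that serves HSP70 as an exchange factor, had 46.6, 57.8, 55.3 and 45.1 FPKM. Dnajb1, the main cytosolic J protein of the stress response, had 20.6, 16.7, 17.3 and 21.6 FPKM. Bag3, an exchange factor that links HSP70 to small heat shock proteins and selective autophagy, had 11.9, 12.3, 12.2 and 10.7 FPKM.

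The inducible HSP70 genes and Hspb1 were the lowest. Hspa1b stood at 2.04 (control), 5.59 (4HC), 4.84 (4HC plus antibody) and 3.14 FPKM (IFNβ). Hspa8 was thus 457-fold above Hspa1b in control and 161-fold above it with 4HC. Hspa1a had 0.0216, 0.0695, 0.0433 and 0.0211 FPKM, and Hspb1 had 0.0223, 0.0355 and 0.0215 FPKM and was listed at 0 with IFNβ. These 2 genes stayed under 0.5 FPKM in every group, the minimum used for the ratios, so 8 of the 10 genes passed it. The first 8 places in the order were the same in all 4 groups. Without a spread between libraries, close neighbours such as Hsp90aa1 and Hspd1 in control cannot be said to differ.

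**Figure D1:**
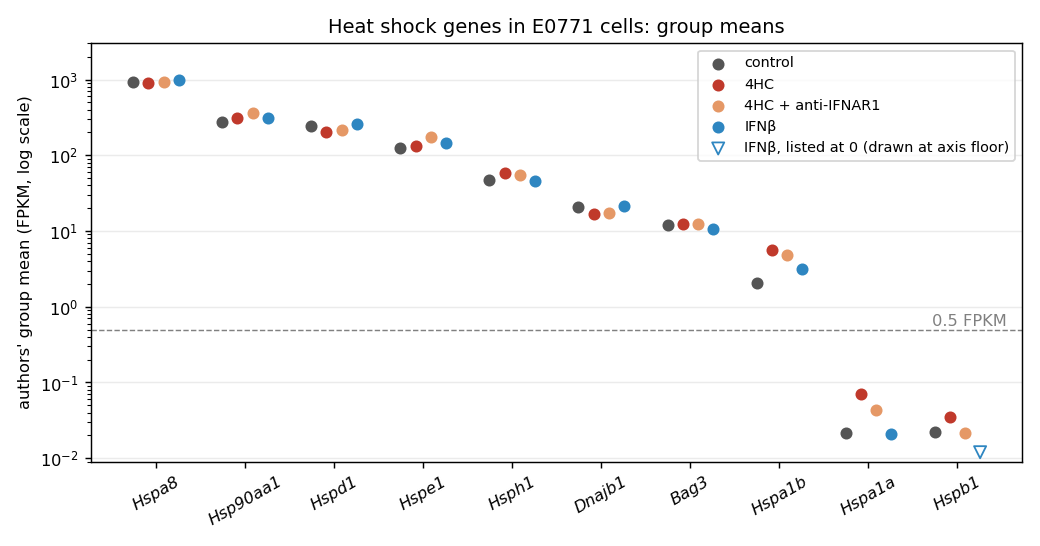
Authors' group mean of the 10 heat shock genes in FPKM on a log axis, with 1 point for each group and no error bars because values per library were not used here. Hspa8 lies between 896.8 and 998.7 FPKM in every group, Hspa1b moves from 2.04 in control to 5.59 with 4HC, and Hspa1a and Hspb1 lie far under the dashed line at 0.5 FPKM.

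After 4HC, Hspa1b was the heat shock gene that stood furthest from control. Its group mean was 2.73-fold that of control. On the log2 scale used for all comparisons, log2 of the ratio of group means with 0.1 FPKM added to each, the difference was 1.41. It was thus 1 of 8 genes over 2-fold higher, beside 5.07% of the 11016 genes that reached 0.5 FPKM in either group, and 0 of 8 were over 2-fold lower, beside 0.445%. Its level rank moved from the 64.6th to the 75.8th percentile of all genes. Adding Hspa1a gave 2.06 FPKM in control and 5.65 with 4HC. This sum rests less on how the reads shared by the pair were split, although FPKM is scaled by each gene's own length. Any reads dropped for fitting both genes would be missing from it. Of the 100-base windows, 4.67% of those of Hspa1a and 3.29% of those of Hspa1b also occurred in Hspa1l. That gene is outside the sum and stood at 0 FPKM in control and 0.00983 with 4HC. A mean over whole cultures does not tell more expressing cells from more RNA per cell.

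Of the 8 genes, 5 lay within 1.2-fold of control, as did 57.1% of all genes. Hsph1 was higher by 0.31 (log2), or 23.9%, and Hsp90aa1 by 0.16, or 11.3%. Hspe1 (0.09), Bag3 (0.05) and Hspa8 (-0.06) differed by less. Dnajb1 was lower, with a log2 ratio of -0.30, and Hspd1 with -0.26. The chaperonin pair thus had log2 ratios of opposite sign. Over the 8 genes, 5 ratios were above 0 and 3 below, and their median was 0.07 beside -0.01 for all genes. Of 10 reference genes, 9 were below their control level with 4HC (median -0.18), while the median over 9483 genes at 1 FPKM or more in every group was -0.04. Rescaling or centring left the sign of all 8 heat shock ratios to control with 4HC as it was.

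**Figure D2:**
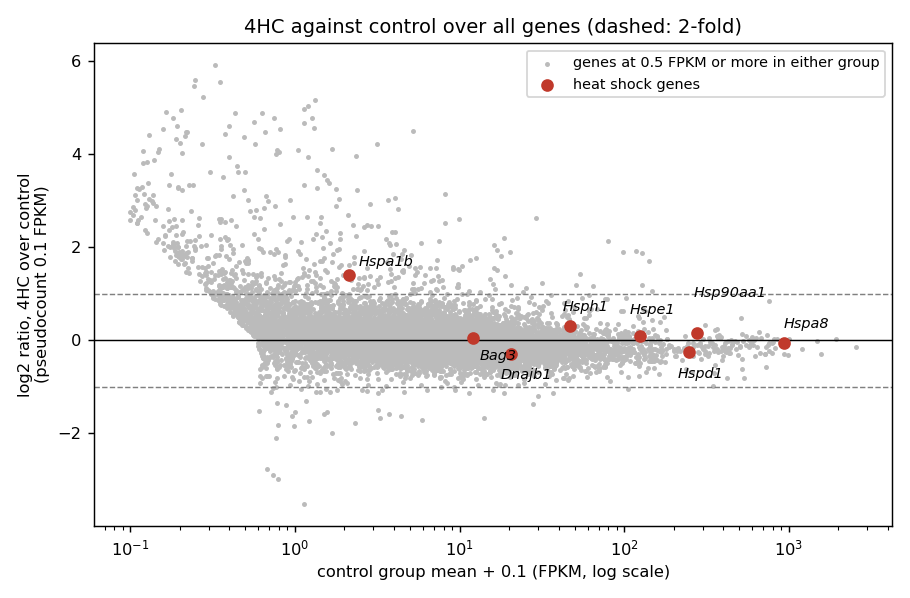
Log2 ratio of 4HC over control against the control level (FPKM plus 0.1, log axis) for every gene at 0.5 FPKM or more in either group (grey), with the 8 heat shock genes above that minimum in red and dashed lines at 2-fold. Hspa1b at 1.41 lies above the upper line, and the other 7 lie between -0.30 and 0.31.

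With the anti-IFNAR1 antibody present, Hspa1b was 2.37-fold its control level (log2 1.21), and 79.0% of the 4HC difference was left, against at most 23.6% for the 5 interferon-stimulated genes. Hspa1b was again 1 of 8 genes over 2-fold higher than control, beside 4.46% of 10995 genes, and 0 were over 2-fold lower, beside 0.446%. With 1 FPKM added in place of 0.1, its log2 ratio was 0.94 and 0 of 8 genes were past 2-fold. For Hsph1, Dnajb1 and Hspd1, the antibody group also stood near the 4HC group, with log2 ratios to control of 0.25, -0.25 and -0.21. Hspe1 and Hsp90aa1 stood higher with antibody and 4HC than in any other group. Hspe1 was 1.41-fold its control level (log2 0.50) and Hsp90aa1 was 1.32-fold (0.40). Against control, 5 of the 8 genes lay within 1.2-fold, as did 54.2% of all genes, and the median log2 ratio of the 8 was 0.14 beside 0.02. After rescaling to equal sums, the median of the 8 was 0.05, with 4 above control and 4 below.

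The direct comparison of 4HC with antibody against 4HC alone gave small ratios for these genes. No gene was over 2-fold higher (0 of 8, beside 0.46% of 11083 genes) or lower (0 of 8, beside 1.52%). Hspe1 had the largest ratio, 1.32-fold (log2 0.40), followed by Hsp90aa1 at 1.18-fold (0.24). Hspa1b was 13.3% lower (log2 ratio -0.20). The rest lay between -0.06 for Hsph1 and 0.05 for Dnajb1 and Hspd1. The FPKM of all genes summed to 6.74% above control in the antibody group and 3.17% below it with 4HC. When every group was rescaled to the same sum, the ratios of Hspa8, Hspd1 and Dnajb1 changed sign (-0.11, -0.09 and -0.08), whereas Hspe1 was at 0.26, Hsp90aa1 at 0.10 and Hspa1b at -0.34.

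IFNβ alone gave no heat shock gene over 2-fold higher than control (0 of 8, beside 2.19% of 10677 genes) or lower (0 of 8, beside 0.318%). Hspa1b was again the gene of largest ratio, 1.54-fold (log2 0.60), and the only 1 of 8 past 1.5-fold, beside 3.48% of all genes. This Hspa1b level lay between control and both 4HC groups. The other 7 genes were within 1.2-fold of control, as were 80.7% of all genes. Hspe1 was at 0.19, Hsp90aa1 at 0.16, Hspa8 at 0.10, Hspd1 at 0.08, Hsph1 at -0.05 and Bag3 at -0.15 on the log2 scale. Dnajb1 was at 0.07. The FPKM of all genes summed to 5.44% above control with IFNβ, and rescaling to equal sums lowered each of these ratios. Then Hspe1 was at 0.12, Hsp90aa1 at 0.09, Hspa8 at 0.02, Hspd1 at 0.003 and Dnajb1 at -0.00. Hsph1 was at -0.12 and Bag3 at -0.22, while Hspa1b was at 0.52. The IFNβ group differs from the 4HC groups in agent and in time since exposure, so the 2 cannot be told apart in a contrast between them. The listed collection time is 72 h for control and for IFNβ cells alike. With IFNβ cells collected 2 h after exposure, as taken here, IFNβ and time in culture cannot be told apart against control either. The study's methods also give a denser seeding for IFNβ cultures than for 4HC cultures.

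**Figure D3:**
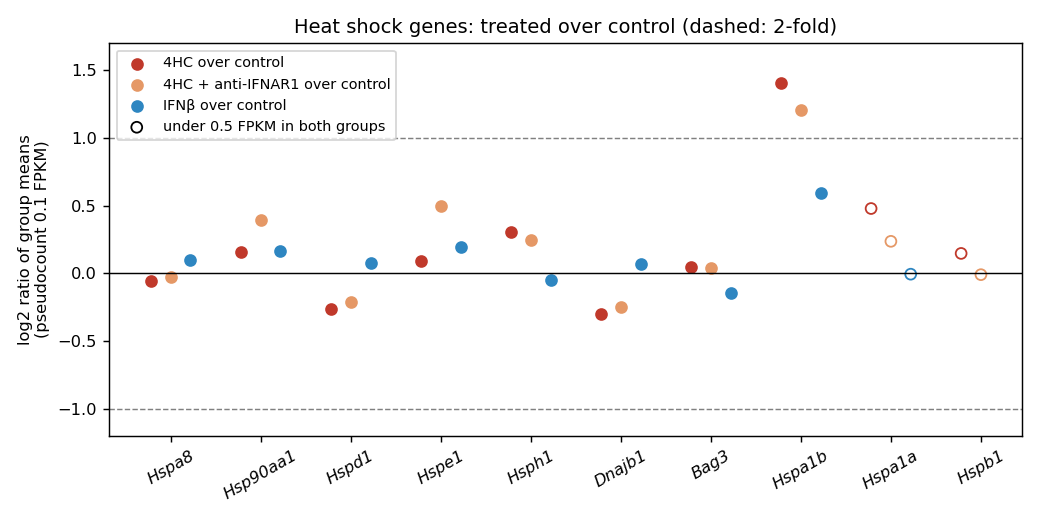
Log2 ratio to control (0.1 FPKM added) of each heat shock gene for 4HC (red), 4HC with antibody (orange) and IFNβ (blue), 1 point for each ratio of group means, with dashed lines at 2-fold and open circles where both groups were under 0.5 FPKM. Hspa1b stands at 1.41, 1.21 and 0.60, Hspe1 and Hsp90aa1 are highest with the antibody (0.50 and 0.40), and Hspb1 has no IFNβ point because it was listed at 0.

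The rest of the chaperone network was followed in a list of 68 genes in 8 roles, of which 61 reached 0.5 FPKM in the 4HC comparison. With 4HC, 2 of the 61 were over 2-fold higher and 0 lower, beside 5.07% and 0.445% of all genes, and the median log2 ratio was -0.02. Cryab, encoding the small heat shock protein αB-crystallin, stood at 7.10 FPKM in control, 15.2 with 4HC, 16.6 with antibody and 8.63 with IFNβ. Hspa4l, an HSP110 relative of Hsph1, stood at 6.48, 13.5, 13.6 and 6.59 FPKM. Both were thus about equally high in the 2 groups given 4HC and closer to control with IFNβ, with log2 ratios of 1.09 and 1.04 for 4HC and of 0.28 and 0.02 for IFNβ. The IFNβ ratio of Hspa4l changed to -0.05 after rescaling.

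Past 1.5-fold with 4HC were 4 of the 61, beside 10.7% of all genes, the others being the J proteins Dnajb4 and Dnajb2. Dnajb4, a relative of Dnajb1, had 7.62, 12.8, 12.7 and 7.81 FPKM. Dnajb2 had 3.00, 4.69, 4.56 and 2.93 FPKM. With the antibody, 116.1% of the 4HC difference was left for Cryab, 101.6% for Hspa4l, 98.3% for Dnajb4 and 92.0% for Dnajb2, as deposited. After rescaling to equal sums, their log2 ratios with antibody against 4HC alone were -0.02, -0.13, -0.15 and -0.18 in that order. The same counts, 2 past 2-fold and 4 past 1.5-fold, were found in the antibody group against control, beside 4.46% and 10.3% of all genes. With IFNβ, and with antibody against 4HC alone, 0 genes of the list were past 2-fold in either direction, beside 2.19% higher and 0.318% lower of all genes with IFNβ and 0.46% and 1.52% with antibody against 4HC.

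**Figure D4:**
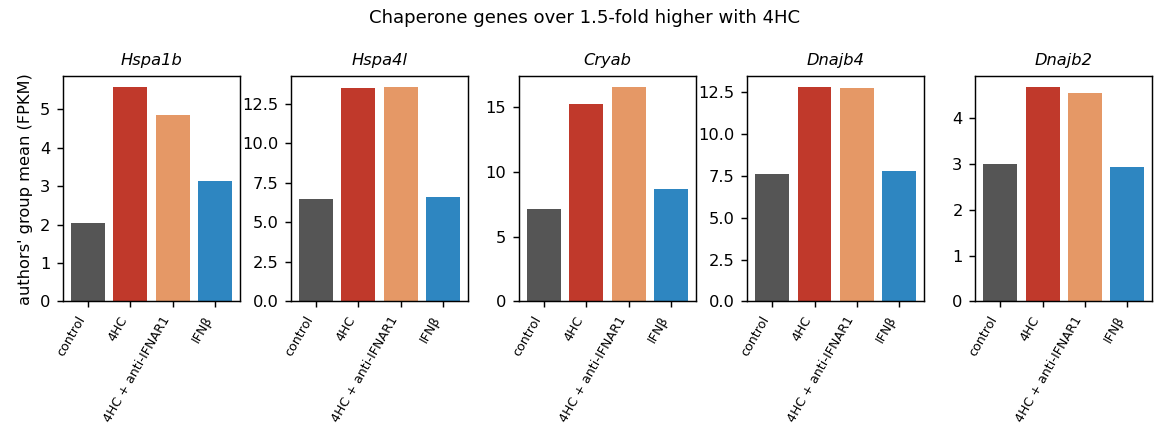
Authors' group mean in FPKM for 5 genes among the 10 heat shock genes and the 68-gene list, each on its own axis from 0 and with no error bars. These passed 1.5-fold with 4HC over control, with 0.1 FPKM added, among genes at 0.5 FPKM or more in either group. By that choice the bar of 4HC alone stands above control in each panel. The bar of 4HC with antibody also stands above control, and the IFNβ bar stands closer to control than to 4HC, including that of Hspa1b (3.14 against 2.04 and 5.59 FPKM). Both are set against means that were used for the choice.

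Among the regulators, Hsf1, the main heat shock transcription factor, had 23.9 FPKM in control, 22.8 with 4HC, 22.2 with antibody and 22.2 with IFNβ. Hsf2 had 4.23, 5.86, 5.38 and 4.24 FPKM, a log2 ratio of 0.46 with 4HC. Hsf4 had 3.88, 3.33, 3.57 and 3.09 FPKM. Only Hsf2 of the 4 measured regulators was above control with 4HC as deposited, beside 48.4% of all genes, and 2 were after rescaling or centring.

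HSP90 and its co-chaperones were mostly lower with 4HC, 9 of 12 as deposited and 8 of 12 after rescaling or centring, with a median of -0.13. Of all genes, 48.4% were above control with 4HC, and 9 of the 10 reference genes were lower, with a median of -0.18. Hsp90ab1, the constitutive HSP90, was nearly level at 815.7, 831.6, 864.8 and 786.0 FPKM. Fkbp4, an immunophilin that helps HSP90 with steroid receptors, had 167.7, 123.8, 139.9 and 177.6 FPKM (log2 -0.44 with 4HC), and its relative Fkbp5 had 32.3, 26.8, 24.3 and 28.3 FPKM. The other HSP70 genes divided into 4 above and 3 below control. Among them, Hspa9, the mitochondrial HSP70, had 113.6, 126.7, 112.9 and 116.2 FPKM, and Hspa12b, a distant relative, had 3.64, 2.51, 2.55 and 2.77 FPKM.

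All 8 subunits of the TRiC chaperonin, the cytosolic folding chamber for actin and tubulin, were slightly lower with 4HC, with log2 ratios from -0.29 to -0.02, although 1 (Cct3) moved above 0 after rescaling or centring. With IFNβ all 8 were above control, from 0.08 to 0.43, although 1 (Cct8) was just below 0 after rescaling. Cct5 had 208.1, 183.7, 214.4 and 231.2 FPKM, Cct3 had 145.6, 143.7, 147.3 and 196.4 FPKM, and Tcp1 had 121.8, 99.7, 113.5 and 130.8 FPKM. None of these ratios passed 1.5-fold. Of all genes, 48.4% were above control with 4HC and 43.1% with IFNβ. Of the 10 reference genes, 9 were also lower with 4HC and 9 were also above control with IFNβ. After rescaling, the TRiC median with IFNβ was 0.03, from 0.11 as deposited. The reference genes then had 4 of 10 above control with IFNβ and a median of -0.04.

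Mitochondrial quality control genes were above control with 4HC in 6 of 7 under each scaling, with a median of 0.21 as deposited. Of all genes, 48.4% were above control as deposited, with a median of -0.01. Lonp1, a matrix protease, had 33.4, 40.3, 36.6 and 30.9 FPKM. Grpel1, the exchange factor of mitochondrial HSP70, had 10.6, 12.3, 15.4 and 11.7 FPKM, and Hscb, a J protein of iron-sulfur cluster assembly, had 3.77, 4.51, 5.38 and 3.55 FPKM. Like Hspe1, Grpel1 and Hscb were highest in the antibody group. Of the 5 small heat shock proteins measured, 4 were above control with 4HC under each scaling, beside the same 48.4% of all genes. Hspb2, which neighbours Cryab in the genome, had 2.38, 3.57, 3.56 and 2.58 FPKM, and Hspb8, the partner of Bag3, had 33.9, 38.4, 35.2 and 32.7 FPKM.

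Exchange factors and co-chaperones of HSP70 lay within 1.2-fold of control with 4HC in 6 of 8 cases, as did 57.1% of all genes. St13, which stabilises client-bound HSP70, had 103.2, 111.6, 119.6 and 109.0 FPKM, Bag6 had 31.4, 28.1, 25.2 and 26.5 FPKM, and Bag2 had 7.26, 5.87, 6.22 and 6.27 FPKM. Of the J proteins, 6 of 10 were above control as deposited, beside 48.4% of all genes, and 8 of 10 after rescaling or centring. The most abundant, Dnaja2, had 50.5, 46.2, 46.9 and 53.4 FPKM. For comparison, 12 of 14 chaperones of the endoplasmic reticulum were above control with 4HC (13 of 14 after rescaling or centring), with a median of 0.17 beside -0.01 for all genes, of which 48.4% were above control. One of them, Dnajb9, a J protein of that compartment, was past 2-fold, at 5.27 FPKM in control, 10.7 with 4HC, 11.8 with antibody and 5.25 with IFNβ.

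**Figure D5:**
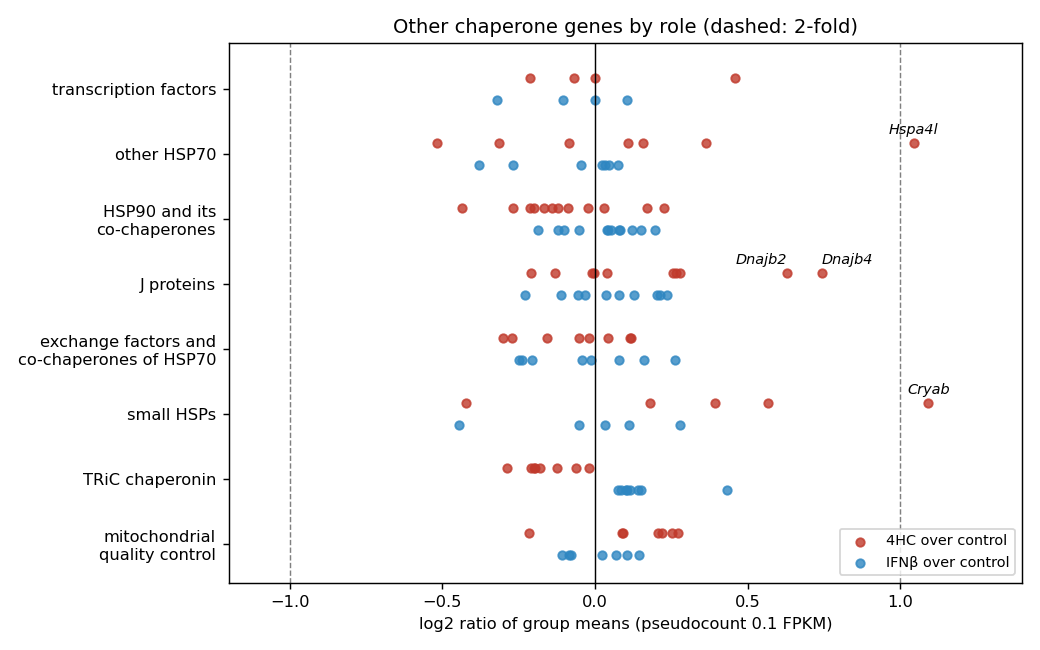
Log2 ratio to control (0.1 FPKM added) of the further chaperone genes at 0.5 FPKM or more, by role, for 4HC (red) and IFNβ (blue), with dashed lines at 2-fold and 1 point for each gene. Cryab (1.09) and Hspa4l (1.04) lie past 2-fold with 4HC, the 8 TRiC subunits lie below 0 with 4HC and above 0 with IFNβ as deposited, and 1 of them crosses 0 in each comparison after rescaling.

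The genes whose pattern over the 4 group means was most like that of a heat shock gene were sought among 3819 genes with a mean of at least 10 FPKM, by the Euclidean distance between log2 profiles centred on their own mean. With only 4 group means, such likeness is a description. For Hspa1b, the nearest were Rnf19b (5.66, 17.0, 14.8 and 9.19 FPKM, distance 0.135), Gadd45g (9.07, 27.0, 25.1 and 15.6 FPKM, distance 0.184) and Myc (64.2, 144.8, 121.2 and 80.8 FPKM, distance 0.230). Rnf19b encodes a ubiquitin ligase, Gadd45g a stress-responsive growth arrest protein and Myc a growth-promoting transcription factor. For Hspe1, the nearest were the ribosomal protein genes Rpl35a (232.7, 248.2, 321.8 and 266.3 FPKM, distance 0.0249) and Rps24 (distance 0.0249), followed by Polr1d, a subunit of RNA polymerases I and III (distance 0.0282). For Hspa1a, whose values were near 0, they were Irf2bp2 (distance 0.0481), Nrp2 (0.0599) and Eaf1 (0.0695). All Hspa1a values lay below the 0.1 FPKM added before taking log2. That addition turned its plain 4HC ratio of 3.22-fold into a log2 ratio of 0.48, so this likeness depends on it.

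Several genes overlap others in the annotation, which bears on their values. Hspa1a overlaps Gm20481 on the opposite strand, Hspd1 and Hspe1 overlap each other on opposite strands, Hspa8 contains small nucleolar RNA genes, and Bag3 overlaps 2610306O10Rik on the same strand. The libraries kept strand, but whether the counting used it is not given in the sources used here. The remaining genes lie in mm9 on chromosome 9 at 40609355 to 40613282 (Hspa8), chromosome 12 at 111929245 to 111934605 (Hsp90aa1), chromosome 5 at 150419419 to 150438890 (Hsph1), chromosome 8 at 86132073 to 86135802 (Dnajb1), chromosome 5 at 136363788 to 136365433 (Hspb1) and chromosome 7 at 135667096 to 135690493 (Bag3).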

How the data were processed

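The submitters' processing notes name TopHat2, featureCounts and edgeR, without versions, and the mouse build mm9. The deposited table holds the authors' mean FPKM of each of 4 groups (fragments per kilobase, relative to library size) and 12 columns of the authors' own comparisons (fold changes, their ratios and p-values), which were not used. Libraries were grouped by their treatment labels. A count test needs values per library, so the planned tests were replaced by ratios of group means, log2((FPKM + 0.1)/(FPKM + 0.1)), for genes of at least 0.5 FPKM in either group, with 2-fold and 1.5-fold limits. The members and gene lists were chosen with earlier results of these data known. Outside the 10 members, the text names the most abundant gene of each role and the 2 of largest ratio to control, the check lists, the nearest genes by pattern, and Dnajb9, Cct8, Chordc1, Dnajb6 and Hspa1l, chosen after their values were seen. Because 27 gene names had been turned into dates, those rows were not named. Motifs were searched on both strands of RefSeq windows. Python 3.11.15, pandas 2.3.3, numpy 2.4.6 and matplotlib 3.10.9 were used, and the ratio and count step was tested on simulated data. Other pseudocounts, limits, no minimum, centring on the median gene and, chosen after the column sums were seen, rescaling to equal sums were tried.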

Additional observations from a re-analysis of the deposited data

How the results depend on the processing

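Over 159 alternative values of the 10 genes' ratios, 0 reversed a called direction. Only the Hspa1b ratios to control of 4HC and of 4HC with antibody were called past 2-fold. Both lay far from 0, so few of these values could have counted as reversed. Of 40 signs, 7, all of ratios near 0, depended on the scaling. Adding 1 FPKM in place of 0.1 lowered the count past 2-fold to 1 in the 68-gene list for 4HC and for 4HC with antibody against control, and to 0 among the heat shock genes with antibody, where the Hspa1b log2 ratio became 0.94. With a 1.5-fold limit the counts were 4 in the 68-gene list in both comparisons, and 1 heat shock gene with IFNβ. After rescaling to equal sums, 1 gene of the list passed 2-fold with antibody, and the median of the heat shock genes with antibody against 4HC alone became -0.10 from 0.04. No paired analysis was possible because the values used are group means, with none per library, and leaving out each replicate was not run for the same reason.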
